A study of Drosophila melanogaster with 66 samples.

Results

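The F3 females of the lineage that began with insulin-cell-ablated founders were compared with F3 females of the parallel control lineage. The comparison was defined by the labels alone: 4 female F3 test arrays and 4 female F3 control arrays, paired by the replicate number in their titles, which makes 8 of the 66 arrays in the table. Each array measured whole-body RNA of adult Drosophila melanogaster on an Affymetrix 3' IVT array, in log2 GCRMA units with 1 value per probe set. The question was which transcripts differ in great-granddaughters of ablated males when the flies themselves carry none of the ablation constructs.

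The F3 test females had the w1118 genotype and no transgene. Their fathers were balancer-free F2 males of the test lineage, and their mothers were F2 control females. The lineage goes back through F1 males of genotype rpr/+; ser/+ to founder males of genotype rpr/cyo; dilp3/ser in the w1118 background, in which the ilp3-GAL4 driver directs the cell-death gene UAS-rpr to the insulin-producing cells. Each founder construct lay opposite a fluorescent balancer chromosome. The F3 control females also had the w1118 genotype, and came from F2 control males and F2 control females of the w1118 control line. Descent from the founders was therefore through males only, at every step with w1118 control-lineage mothers. The F3 males of the test lineage and their F3 male controls came from the same crosses, 4 arrays each. The F2 test females and F2 control females, 3 arrays each, were the generation before. The founder females carried the driver and the cell-death gene, and F1 control females, raised concurrently with them, served as their controls according to the sample labels, 3 arrays each. The series' design text, by contrast, says that F1 controls were used in crosses and not profiled, so the founder differences rest on the sample labels.

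For each array, flies were kept at 25 degrees on a 12-hour light cycle, 150 males and females were mated, and progeny that eclosed in the first 5 days were collected. RNA of 80 to 90 flies was pooled, and labelling started with 100 ng of total RNA. Ages and mating state after eclosion are not given in the sources used here. In whole-fly RNA, fewer cells of a type and less RNA per cell cannot be told apart.

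Insulin-like peptides of Drosophila are secreted by a small cluster of median neurosecretory cells in the brain. Through the insulin receptor InR they restrain the transcription factor foxo and set growth, sugar and lipid stores and egg production. Adult females give much of their RNA to the ovary. There nurse cells load the egg with maternal transcripts, and follicle cells make the vitelline membrane and the chorion. The piRNA pathway protects that germline from transposons, and it can pass small RNAs to offspring through the egg. These facts are background and not results of the arrays described here.

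The 8 arrays were alike in scale. Median levels ran from 3.298 to 3.445, and between 5193 and 5575 of 18769 probe sets lay at the lowest value of the scale, 2.2305. The sex label was checked against male markers. All 7 Y-linked genes on the array lay under 3 on all 8 arrays, with a maximum of 2.43 in F3 test females and 2.30 in F3 control females, but averaged only 3.27 in F3 males, so they separate the sexes weakly. The 38 testis and sperm markers averaged 2.91 in F3 test females and 2.89 in F3 control females, against 8.91 in F3 males. The 38 accessory gland and ejaculatory duct markers averaged 2.95 in F3 test females and 2.96 in F3 control females, against 11.07 in F3 males. Of these 38, 29 lay under 3 on all 8 female arrays, and the brightest reached 12.54 in test females and 12.94 in control females. Yolk proteins Yp1, Yp2 and Yp3 lay between 13.50 and 14.52 in test females and between 13.60 and 14.46 in control females.

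Arrays of 1 number resembled each other across the lineages, so the pairing was kept as a block in the fit. Deviations from the group means correlated at 0.45 to 0.78 between test and control arrays of the same number, and at -0.66 to 0.37 between arrays of different numbers. Subtracting the group mean ties these values together, so positive values at the same number pull the others down. Numbers 1 and 4 carry batch label 2 and numbers 2 and 3 carry batch label 1, in both lineages. One pair needs a separate remark. The number 3 test array differed from the F2 female test array numbered 3 by a root mean square of 0.123 on the log2 scale, and the number 3 control array from the F2 female control array numbered 3 by 0.127. These were the 2 smallest distances among 1057 pairs of arrays of the same sex. Test and control arrays of the same number in F3 females were 0.167, 0.317, 0.190 and 0.204 apart for numbers 1 to 4. The labels give these arrays to different generations, and whether they hold related RNA cannot be told from the files. Results are therefore also given without number 3, and F2 and F3 females cannot be taken as independent at that number.

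Of 17104 entries, each a gene at its brightest probe set or a probe set without a single gene name, 10264 were bright enough to test (above 2.445 on at least 4 of the 8 arrays). No entry passed. Limma's moderated paired test called 0 of 10264 (0%) at a Benjamini-Hochberg adjusted p under 0.05, and the smallest adjusted p was 0.638. At an unadjusted p under 0.05 there were 706 entries (6.88%), of which 402 lay higher in test females (3.92%) and 304 lower (2.96%). Without number 3 the count of calls was also 0, with 797 entries at an unadjusted p under 0.05. Where the spread was estimated from the F3 arrays of both sexes, 2 genes passed, Pcp and hydra, with a smallest adjusted p of 0.0283 by limma. For Pcp the F3 male arrays all read the lowest value and cannot vary, so they lower its estimated spread in that fit.

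The arrays were precise enough to bound most differences. The median size of the log2 difference between test and control was 0.084, and the 95% interval had a median half-width of 0.205. In 88.6% of entries the interval lay wholly within a 1.5-fold difference in either direction, and in 97.9% within 1 log2 unit. A log2 difference beyond 1 was measured in 10 entries, and none of these passed. Differences between replicate numbers were described by another measure. The pair means of an entry spanned a median of 0.461 log2 units from the lowest to the highest number, and 14.4% of entries spanned more than 1. A range over several pair means tends to exceed a difference of group means even without any effect. The sizes of the measures therefore cannot be compared directly.

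**Figure D1:**
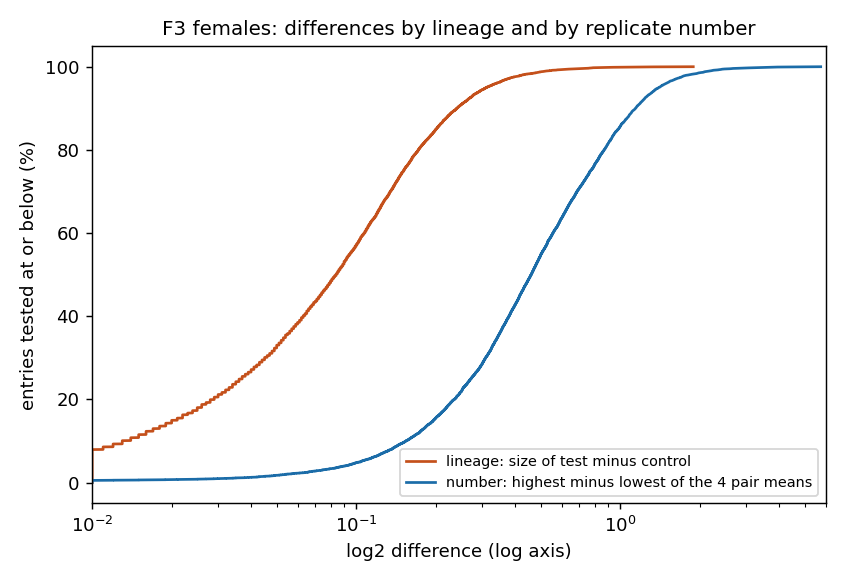
Cumulative share of the 10264 tested entries (y axis, percent) by log2 difference (x axis, log scale). The orange line gives the size of the difference between F3 test and control females, with a median of 0.084. The blue line gives the range between the 4 replicate numbers, with a median of 0.461, and lies to the right of the orange line. The measures are unlike, as a range over 4 pair means tends to exceed a difference of group means even without any effect.

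The genes with the smallest p are named as not passing. Among those lower in test females in all 4 pairs, hydra stood first. This X-linked gene is known for expression in the testis. Its log2 level was 2.98, 3.75, 2.96 and 3.73 in test females numbered 1 to 4, against 3.71, 4.79, 3.77 and 5.04 in control females. Each test array lay below its own control, while the groups overlapped at 3.71 to 3.75. The log2 difference was -0.97 ± 0.11 (SE, 95% interval -1.25 to -0.69), with a limma p of 0.000286. Levels this close to the lowest value of the scale compare with 10.98 to 11.27 in F3 test males and 10.91 to 11.46 in F3 control males.

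Pcp encodes a pupal cuticle protein. Its levels were 3.43, 3.51, 3.18 and 2.56 in test females, against 4.53, 4.90, 3.86 and 3.37 in control females. The difference was -1.0 ± 0.13, and the groups overlapped only through control array 4. In F3 males of both lineages all 8 arrays read 2.23. Gld, a glucose dehydrogenase made in reproductive tracts of both sexes, read 4.98, 5.63, 5.54 and 4.87 in test females and 5.43, 6.33, 6.19 and 5.22 in control females. Its difference was -0.53 ± 0.08, smaller than the distance between numbers 2 and 4 within either lineage.

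The other 5 genes of this direction had differences between -0.30 and -0.39. The sarcomere gene sals, which controls the length of actin thin filaments, read 5.74, 6.08, 6.39 and 5.13 in test females and 5.95, 6.53, 6.74 and 5.56 in control females (-0.37 ± 0.06). MFS14, a transporter of the major facilitator family, differed by -0.31 ± 0.05. CG13010, CG15043 and CG13912 differed by -0.30, -0.39 and -0.30, with adjusted p of 0.638 for each.

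Genes that lay higher in test females in all 4 pairs were led by CG5103, a gene of the transketolase family. It read 3.52, 3.88, 3.68 and 3.75 in test females and 3.06, 3.20, 3.10 and 3.37 in control females. All 4 test arrays lay above all 4 controls, and the difference was 0.53 ± 0.07 (95% interval 0.35 to 0.70, limma p 0.000556, adjusted p 0.638). CG5327 was separated in the same way, at 2.66, 3.02, 3.06 and 2.65 in test females and 2.40, 2.37, 2.46 and 2.23 in control females, near the bottom of the scale.

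CG5611 read 5.77, 5.15, 5.52 and 6.0 in test females and 5.30, 4.37, 5.11 and 5.60 in control females (0.52 ± 0.09). Gem2, a component of the complex that assembles splicing ribonucleoproteins, read 7.86, 7.23, 7.59 and 8.16 in test females and 7.65, 6.91, 7.22 and 7.69 in control females (0.34 ± 0.06). In both genes the groups overlapped, and the pairs carried the difference. CG31636, CG12316, CG8526 and CG15861 completed this direction, with differences of 0.42, 0.36, 0.44 and 0.50. Over all tested entries, 1027 (10%) lay higher in test females in 4 of 4 pairs and 686 (6.68%) lay lower in 4 of 4, so a shared direction alone was common.

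**Figure D2:**
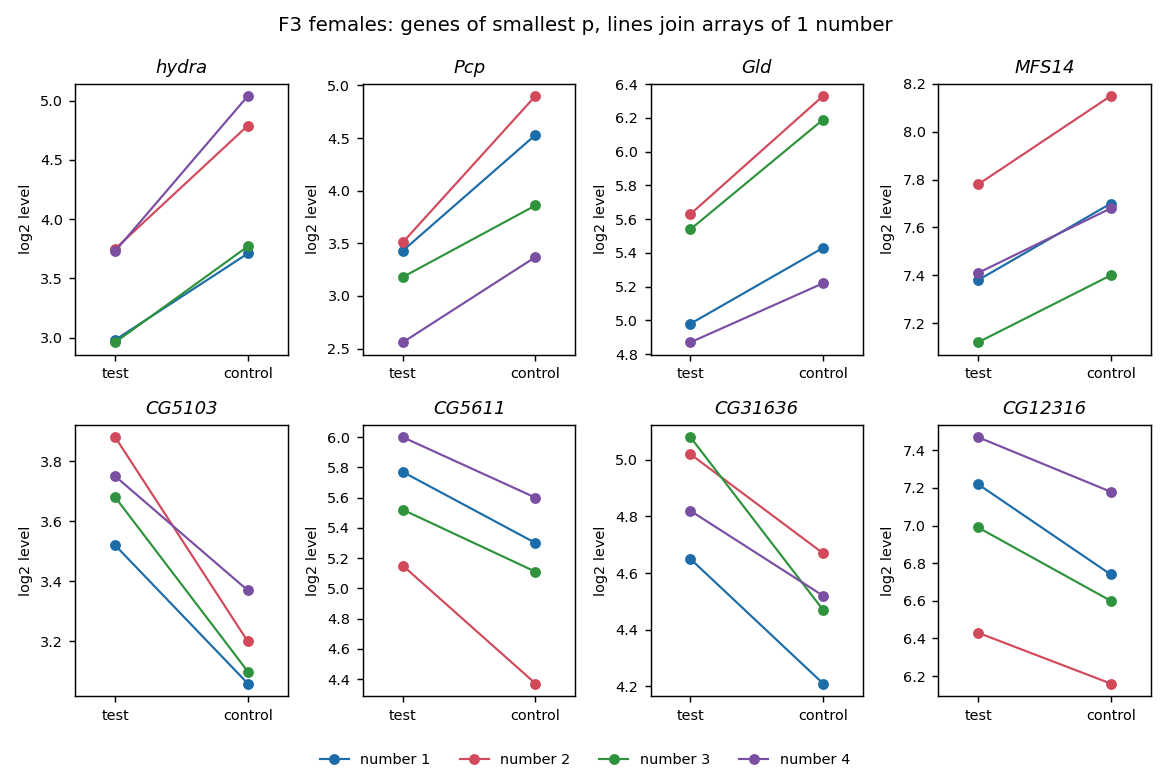
Log2 level (y axis) of the 4 named genes of smallest p in each direction, in F3 test females (left) and F3 control females (right). Each line joins the test and control array of 1 replicate number. All 4 lines of a gene slope the same way, and lines of different numbers are often farther apart than their ends.

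Differences in the measured insulin genes were small, but the peptides of the ablated cells lay near the lowest value of the scale. Ilp2, an insulin-like peptide of the ablated cells, read 3.13, 3.54, 3.12 and 3.05 in test females and 3.13, 3.72, 3.13 and 3.15 in control females. The difference was -0.08 ± 0.06, with an interval of -0.23 to 0.07. Both number 2 arrays lay above the rest. Ilp5, from the same cells, was too dim to test, with 2.35 to 2.44 in test females and 2.35 to 2.99 in control females. The receptor gene InR differed by -0.04 ± 0.13 and foxo by -0.06 ± 0.05. Ilp6 and Thor had no probe set of their own among the named entries.

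Among 8 tested genes of insulin-like peptides, their binding partners and adipokinetic hormone signalling, 3 lay higher in test females and 0 were called. Ilp8, a relaxin-like peptide made by follicle cells of the ovary, differed by 0.18 ± 0.06 and was higher in 4 of 4 pairs (7.86, 7.09, 7.51 and 8.18 in test females, 7.69, 6.81, 7.45 and 7.97 in control females). Sdr, a secreted decoy of the insulin receptor, differed by 0.26 ± 0.10, and ImpL2, an insulin-binding protein, by -0.25 ± 0.12. Of 19 tested genes of insulin and TOR signalling, 10 lay higher, and the median difference was 0.01. The 3 at an unadjusted p under 0.05 were rictor (0.21 ± 0.06) and raptor (0.52 ± 0.19), partner proteins of the TOR kinase complexes, and the kinase gene Sik3 (0.14 ± 0.05). Over all tested entries 6.88% had an unadjusted p under 0.05, and 3.92% had it and lay higher in test females. The raptor level was dim and varied more between numbers, from 2.36 to 4.47 in test females and from 2.35 to 3.47 in control females.

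Gene lists were described by counts and medians, beside 53.9% of all tested entries that lay above 0, 45.8% that lay below 0 and a median log2 difference over all entries of 0.01. No member of any of the 42 lists with tested members was called. Germline and cell-cycle lists lay mostly above 0. In the piRNA pathway 31 of 34 tested genes lay higher in test females, with a median of 0.10. Among 41 genes of mitosis and DNA replication 36 lay higher (median 0.09), and among 39 maternal germline transcripts 33 did (median 0.08). The median of the Polycomb, trithorax and chromatin list was 0.04, with 29 of 42 higher.

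Single germline genes differed within narrow bounds. Members of lists named here and in what follows were chosen after their values were seen. The piRNA processing nuclease zuc read 7.47, 6.53, 7.35 and 7.39 in test females and 6.96, 6.22, 7.04 and 7.22 in control females, higher in 4 of 4 pairs (0.33 ± 0.07, interval 0.15 to 0.50). Hen1, which methylates piRNA ends, differed by 0.35 ± 0.12. The germline Argonaute genes piwi, aub and AGO3 differed by 0.06, 0.05 and 0.06. Among the body-axis determinants stored in the egg, osk differed by -0.01 ± 0.06, bcd by 0.04 ± 0.08 and nanos by 0.10 ± 0.05. Of the cell-division genes, the microtubule motor gene Klp10A differed by 0.19 ± 0.05 and the anaphase activator gene fzy by 0.26 ± 0.10.

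Yolk and eggshell lists did not share that sign. None of 4 tested genes of yolk proteins and their receptor lay higher in test females, with a median of -0.06. Of the chorion and vitelline membrane genes, 4 of 18 lay higher, with a median of -0.13. Cp38, a chorion protein gene, read 13.20, 12.21, 13.25 and 12.79 in test females and 13.35, 12.47, 13.33 and 13.27 in control females (-0.24 ± 0.08). The chorion and vitelline membrane medians of the 4 pairs were -0.22, 0.17, 0.04 and -0.54 for numbers 1 to 4. Eggshell genes thus differed in sign between pairs.

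Lists of somatic tissues lay mostly below 0 in test females. None of 24 muscle genes and 1 of 20 fat body and storage genes lay higher, with medians of -0.16 and -0.14. The counts were 7 of 27 for hemocyte and clotting genes (median -0.15), 4 of 25 for photoreceptor genes (-0.16), 5 of 25 for gut serine proteases (-0.18) and 3 of 24 for neuropeptides and their receptors (-0.11). Gut lipase and peritrophic matrix genes lay near 0, with 9 of 17 higher (median 0.01). Of 15 spermatheca and female reproductive tract genes 6 lay higher (-0.06). Among 58 genes of oxidative phosphorylation 9 lay higher (-0.07), and among 27 genes of amino acid and one-carbon metabolism 3 did (-0.09). The summed linear level of the muscle list, as a log2, ran from 13.66 to 15.69 in test females and from 13.79 to 15.67 in control females, and that of the mitosis list from 15.09 to 15.75 in test females and from 14.97 to 15.67 in control females. The ranges of the lineages overlapped in both lists.

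In the circadian clock list 4 of 13 genes lay higher (median -0.09). At an unadjusted p under 0.05, 1 photoreceptor gene lay higher and 3 lower, and 1 spermatheca list gene lay higher and 1 lower. Genes of small p named next, from these lists, had diverse roles and all lay lower. The photoreceptor scaffold gene inaD read 3.46, 3.89, 4.63 and 2.67 in test females and 3.72, 4.61, 4.86 and 3.32 in control females (-0.47 ± 0.11). Mlc1, a myosin light chain gene, differed by -0.23 ± 0.08, and Gnmt, the glycine N-methyltransferase gene of the fat body, by -0.31 ± 0.09. The gut peptide gene Orcokinin differed by -0.34 ± 0.09, and Clk, the circadian activator, by -0.36 ± 0.09. Adjusted p was 0.638 for each.

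Among lists with at least 10 tested members, antimicrobial peptides had the median farthest from 0. None of 15 inducible antimicrobial peptides lay higher in test females, and the median was -0.32. The 4 pair medians were -0.06, -0.85, -0.15 and -0.13, and without number 2 the list median was -0.09. Mtk, which encodes the antifungal peptide metchnikowin, read 8.85, 8.50, 10.65 and 5.95 in test females and 7.49, 11.34, 10.66 and 7.79 in control females. Test females were higher at number 1, close to their control at number 3 and lower at numbers 2 and 4, and the interval of -2.66 to 1.00 spans both signs. BomS5, a Bomanin peptide gene of the Toll response, read 9.68, 10.27, 11.78 and 9.29 in test females and 10.03, 11.30, 11.93 and 9.58 in control females (-0.46 ± 0.16). Of 32 immune recognition and signalling genes 12 lay higher, with a median of -0.11. GNBP2 read 5.24, 5.60, 5.40 and 4.48 in test females and 5.48, 6.13, 5.86 and 5.16 in control females (-0.48 ± 0.09), and PGRP-LB, an amidase that degrades peptidoglycan, differed by -0.32 ± 0.06.

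**Figure D3:**
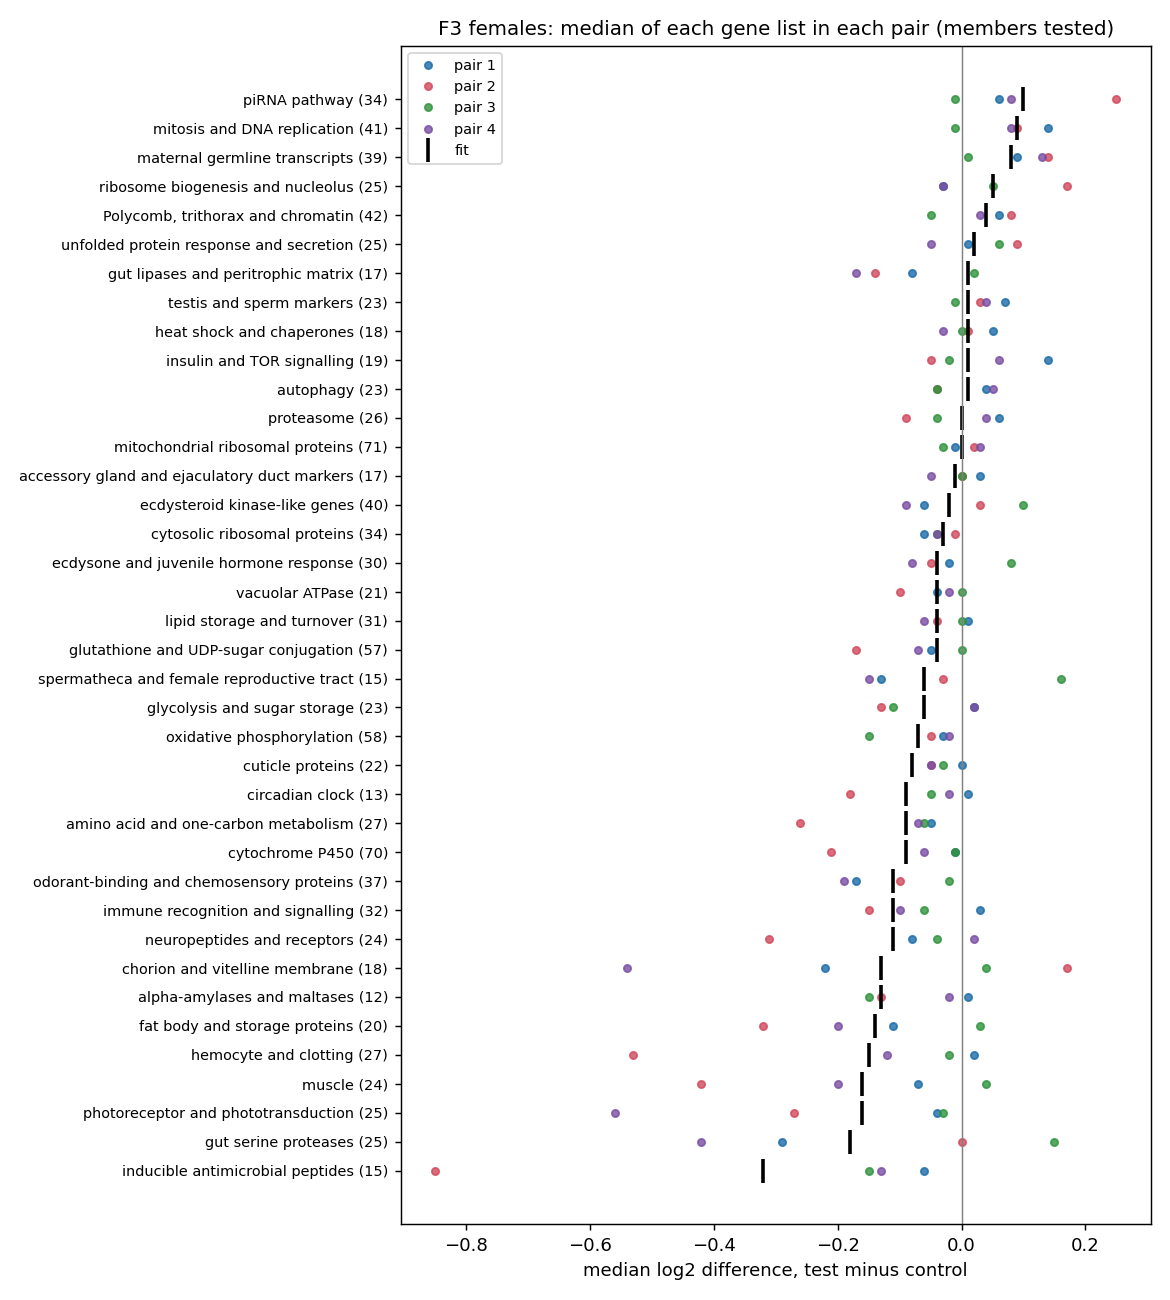
Median log2 difference, F3 test minus control females (x axis), of every list with at least 10 tested members, ordered by the fitted median (black bar). Coloured dots give the same median within each of the 4 pairs. Lists at the top (piRNA pathway, mitosis and DNA replication, maternal germline) lie at or above 0 or at -0.01 in every pair.

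For some of these lists the sign of the median differed between pairs, and for others, such as oxidative phosphorylation and amino acid metabolism, it was the same in all 4. At number 3 the medians were -0.01 for the piRNA and mitosis lists and 0.01 for maternal germline transcripts, against 0.06 to 0.25 for these lists in the other 3 pairs. At number 3 the muscle median was 0.04 and the fat body median 0.03, against -0.42 to -0.07 for these lists in the other 3 pairs. Without number 3 the medians were 0.14 for the piRNA pathway, 0.13 for mitosis, -0.22 for muscle and -0.20 for the fat body. Without number 2 they were 0.04, 0.07, -0.09 and -0.06 for the same lists. The gut protease median rested on other pairs: the pair medians were -0.29, 0, 0.15 and -0.42 for numbers 1 to 4, and the fitted median was -0.10 without number 1 and -0.05 without number 4. The chorion median was -0.06 without number 1 and -0.02 without number 4.

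Replicate number was tested for the same 10264 entries, in the same fit with lineage as a term. This test was chosen after the values were seen. Limma's F test over the 4 numbers called 3576 entries (34.8%) at an adjusted p under 0.05. With no filter on dim entries it called 301 of 17104. In the filtered fit, 22 of 24 muscle genes were called, 36 of 41 mitosis genes, 19 of 25 photoreceptor genes and 11 of 15 antimicrobial peptides. Other lists with lineage medians away from 0 lay nearer the share of all entries, with 8 of 20 fat body genes, 11 of 25 gut serine proteases, 5 of 18 chorion genes and 18 of 58 oxidative phosphorylation genes. The piRNA pathway (12 of 34) and maternal germline transcripts (13 of 39) were called about as often as all entries. Cytosolic ribosomal proteins were called in 1 of 34. The part of the differences between numbers in the lineage medians was not tested.

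The number 3 arrays of both lineages were high in muscle actins and in CG7214. Act88F, the actin of indirect flight muscle, read 8.11, 7.21, 11.51 and 6.59 in test females numbered 1 to 4 and 8.0, 7.88, 11.44 and 6.79 in control females. Act79B, an actin of tubular muscle, read 12.69 in the number 3 test array and 12.32 in the number 3 control array, with the other arrays between 8.79 and 9.93. CG7214 read 8.20 in the number 3 test array and 8.01 in its control, against at most 3.12 on the other 6 arrays. Its range between numbers was 5.28 log2 units, while its lineage difference was -0.02 ± 0.10.

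Number 4 arrays stood at the other end. The mean level of the photoreceptor list was 6.71, 6.88, 7.27 and 5.77 in test females and 6.76, 7.06, 7.27 and 6.24 in control females. The mitosis list ran the other way, with 9.30, 8.61, 9.14 and 9.49 in test females and 9.15, 8.50, 9.14 and 9.39 in control females. Number 2 arrays were thus lowest for cell-division genes and number 4 arrays highest. Hesr, a bHLH repressor gene, was high only at number 2, with 6.42 in test females and 5.82 in control females, against at most 2.84 on the other arrays.

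Between single numbers, the contrasts ran up to 4597 called entries (2 against 4, different batch labels). Numbers 2 and 3 share batch label 1 and differed in 1630 entries, while numbers 1 and 4, which share batch label 2, differed in 2. Without number 4 the F test called 39 entries, without number 2 it called 829, without number 1 it called 2587 and without number 3 it called 2443.

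**Figure D4:**
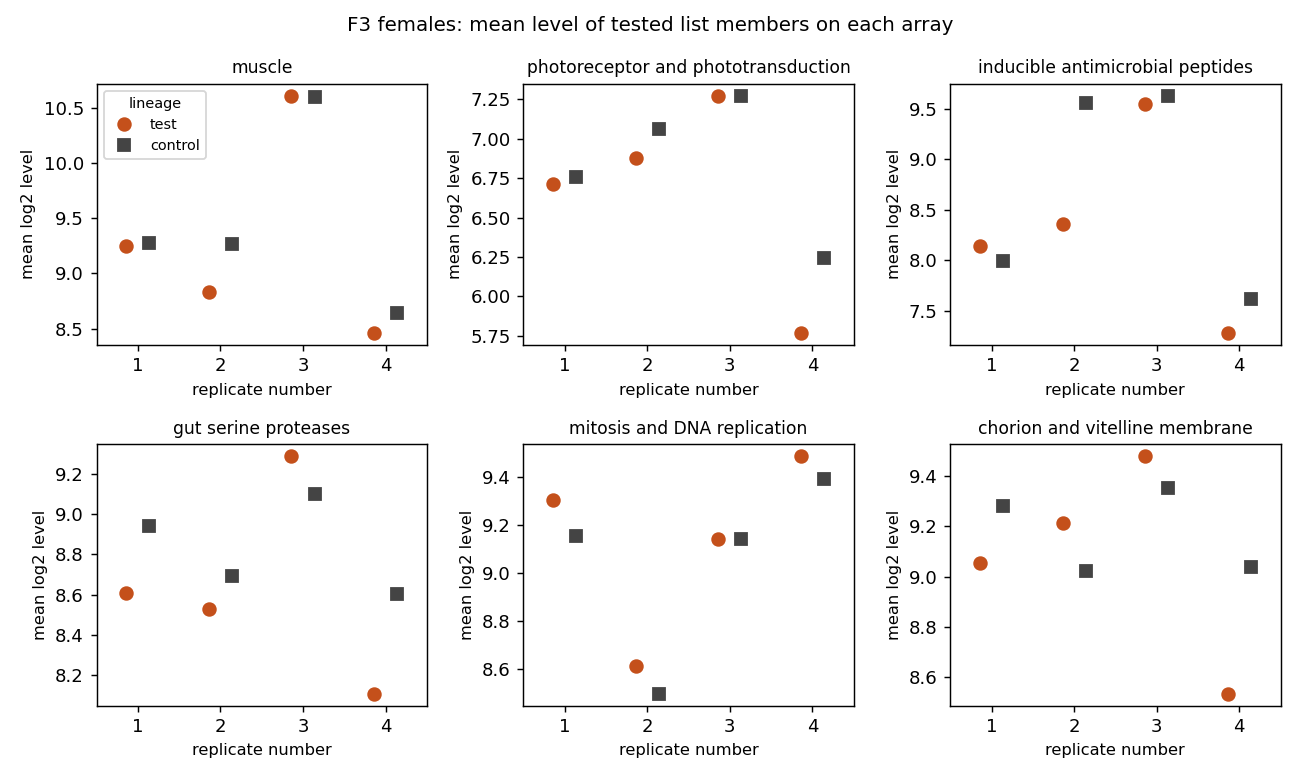
Mean log2 level (y axis) of the tested members of 6 gene lists on each of the 8 arrays, by replicate number (x axis). Orange circles are F3 test females and grey squares, to their right, F3 control females. Test and control arrays of 1 number often lie close together while numbers differ, as at number 3 for muscle. Wider gaps include antimicrobial peptides at number 2. At number 4 they include chorion genes (8.53 test, 9.04 control) and gut serine proteases (8.11 test, 8.60 control).

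A group of entries differed between the lineages at 2 numbers only. It was picked after the values were seen, as entries more than 1 log2 unit higher in test females at numbers 2 and 3 and within 0.5 at numbers 1 and 4, and is a description with no test. There were 23 such entries, 5 of them with a symbol, whereas in this direction the same rule gave 0 or 1 entries for each other pair of numbers. Numbers 2 and 3 carry batch label 1 in F3 females, but batch labels 4 and 2 in F3 males. A part of batch in these entries was not tested. Muc68Ca, a mucin-like gene, read 2.47, 5.89, 5.47 and 2.51 in test females and 2.52, 2.41, 2.40 and 2.50 in control females. CG5681 read 5.51 and 3.89 in test females numbered 2 and 3, against 3.25 and 2.41 in their controls. The other named ones were CG13563, dtr and CG8492.

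The mean level of the 23 entries was 4.95, 7.05, 6.11 and 4.71 in test females and 4.97, 5.14, 4.45 and 4.82 in control females. High and low arrays occurred in both lineages elsewhere, and F3 test males were also highest at numbers 2 and 3. In F3 males the mean was 5.69, 7.31, 7.17 and 5.62 in the test lineage and 7.02, 6.87, 6.18 and 6.08 in the control lineage. In F2 females it was 5.27, 5.80 and 6.04 in the test lineage and 5.91, 7.29 and 4.51 in the control lineage, where the arrays numbered 3 are the ones that nearly match the F3 arrays. In the paired fit, 1 of the 23 had an unadjusted p under 0.05. In the opposite direction the rule gave 2 entries at numbers 2 and 3, Fst and CG32284. Fst, known for its response to cold, read 7.81, 8.60, 7.79 and 6.86 in test females and 8.24, 9.68, 8.86 and 7.26 in control females.

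Genes that differed in founder females were then read in F3 females, which descend from founder males and not from founder females. Founder females carry the constructs, the balancer chromosomes and the ablation together. These cannot be told apart in their differences from F1 control females. Founder females were set against F1 control females in a fit of the female F0 and F1 arrays with batch as a factor, in which no F3 array takes part. It called 30 of 11480 entries (0.261%), and 26 of these could be tested in F3 females. The founder differences of the 26 ranged from 1.22 to 6.89 log2 units in size, with a median of 3.29. In F3 females the median size was 0.08 and the largest 0.33. In 26 of 26 the 95% interval of F3 females excluded the founder difference, and in 25 of 26 it included 0. The exclusion used the founder estimate without its standard error. Founder differences this large made it likely beforehand. The founder estimates were chosen for passing a threshold, which favours large ones. As a description, the sign was shared in 16 of 26 (61.5%), against 35.2% of all entries tested in both.

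CG11893 belongs to the ecdysteroid kinase-like genes. It read 8.65, 8.40 and 7.74 in founder females and 3.28, 2.41 and 2.27 in F1 control females. In F3 it read 4.26, 4.21, 2.53 and 6.03 in test females and 3.81, 4.47, 2.34 and 5.60 in control females, with a difference of 0.20 ± 0.13 between lineages and a range of 3.38 between numbers. CG8654 read 3.65, 4.76 and 3.71 in founder females and 7.54, 8.09 and 8.18 in F1 control females. In F3 it read 8.15, 9.14, 8.18 and 7.65 in test females and 8.10, 8.90, 8.33 and 7.90 in control females (-0.03 ± 0.10).

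Cyp6g1, a cytochrome P450 gene known for insecticide resistance, differed by -2.82 ± 0.39 in founders and by -0.18 ± 0.08 in F3 females. GstE11, a glutathione transferase gene, differed by 1.63 ± 0.26 in founders, while its F3 levels stayed within 7.64 to 7.73 in test females and 7.65 to 7.71 in control females. The autophagy gene Atg5 was the 1 founder gene of the 26 with an unadjusted p under 0.05 in F3 females. It differed by 3.27 ± 0.42 in founders and by 0.22 ± 0.07 in F3 females, where it read 6.12, 6.37, 5.89 and 6.61 in test females and 5.95, 6.04, 5.80 and 6.32 in control females (adjusted p 0.638). Ser12, a serine protease gene at 7.83 to 8.23 in founder females and 2.23 in F1 control females, lay at 2.23 in all 4 F3 test females and at 2.23 to 2.27 in F3 control females. A fit of all female arrays with batch called 105 founder entries (0.856%), and of 92 tested in F3 females the interval excluded the founder difference in 92 and included 0 in 85. The founder standard error did not enter here either. Of these 92, 7 had an unadjusted p under 0.05 in F3 females, where 6.88% of all tested entries did. The founder sign was shared in 49 (53.3%), and the share over all entries was not computed for this fit.

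**Figure D5:**
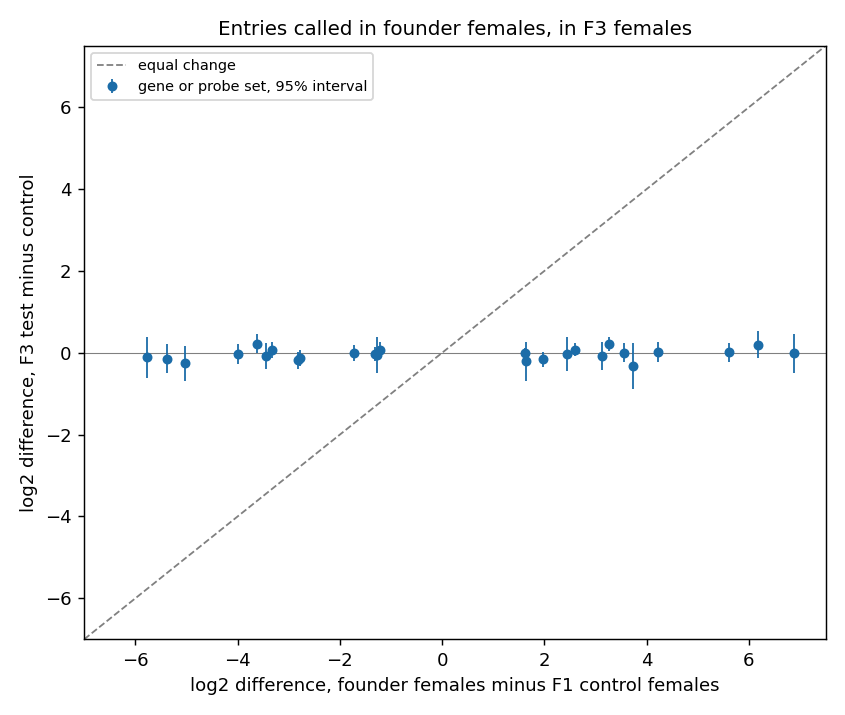
Log2 difference of F3 test minus control females (y axis, with 95% intervals) against that of founder minus F1 control females (x axis), for the 26 entries called in founders and tested in F3 females. The dashed line marks equal differences. All 26 points lie within 0.33 of 0 on the y axis, while the x axis reaches 6.89.

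Whether the lineage difference depended on sex was tested with F3 males in 1 fit of 16 arrays, with each pair as a block. The interaction called 0 of 11124 entries (0%) by limma, with 906 at an unadjusted p under 0.05 (8.14%). Without female number 3 it called 1 entry, the gut protease gene Jon66Cii, at an adjusted p of 0.0467. Jon66Cii read 3.36, 4.52, 3.96 and 2.74 in F3 test females and 4.72, 6.0, 3.58 and 4.64 in F3 control females, so number 3 was the pair with the opposite sign. In males alone 0 of 10283 entries were called (800 at an unadjusted p under 0.05, 7.78%).

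The genes of smallest p in this interaction were Pcp, sNPF-R and hydra, lower in females relative to males, and Hex-t1, CG8526 and CG7849, higher. Most of the value lay in females for hydra, where the female difference was -0.97 and the male difference -0.06 ± 0.09. For sNPF-R, a neuropeptide receptor gene, the female difference was -0.21 ± 0.06 and the male difference 0.54 ± 0.10. Hex-t1, a testis hexokinase gene, read 3.31 on all 8 F3 female arrays. In males it read 4.90, 4.89, 5.0 and 4.78 in the test lineage and 5.66, 5.43, 5.42 and 5.55 in the control lineage, and the interaction of 0.62 ± 0.11 is that male difference alone. Hex-t1 did not vary in females, nor Pcp in males, which lowers the estimated spread of each in this fit. InR differed by -0.46 ± 0.09 in males and by -0.04 ± 0.13 in females, with an interaction of 0.42 ± 0.16 at an adjusted p of 0.57.

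The generation was tested in the same way with F2 females, in 14 arrays. The interaction called 0 of 10514 entries (0%), with 311 at an unadjusted p under 0.05 (2.96%). F2 females alone gave 0 calls among 10280 entries (268 at an unadjusted p under 0.05, 2.61%). With the pairs numbered 3 of both generations left out, the interaction again called 0 entries, and 413 had an unadjusted p under 0.05. The F2 arrays numbered 2, the F2 pair with batch label 3, stood apart, at root mean square distances of 1.158 to 1.636 from the F3 female arrays, against 0.123 to 0.531 for the other F2 arrays. Without that pair the interaction called 0 entries (295 at an unadjusted p under 0.05), and F2 females alone gave 0 calls (364). The genes of smallest p were dpr8, CG6023 and CG10958, higher in F3 relative to F2, and CG4041, CG18577 and PGRP-LB, lower. For dpr8, an immunoglobulin-domain gene of the nervous system, the F3 difference was 0.36 ± 0.10 and the F2 difference -0.52 ± 0.07, with an adjusted p of 0.989 for the interaction. The 2 leading genes of F3 females had F2 differences of -0.14 ± 0.19 for hydra and -0.29 ± 0.14 for Pcp.

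The same lists were read in the other groups. In F2 females 32 of 34 piRNA genes, 38 of 41 mitosis genes and 36 of 39 maternal germline transcripts lay higher in the test lineage, where 63.0% of all entries did, and the median of these lists was 0.17 to 0.24. The muscle median was -0.02 in F2 females. These F2 values rested on the pair numbered 2. Without it, 21 of 34 piRNA genes, 20 of 41 mitosis genes and 27 of 39 maternal germline transcripts lay higher, where 54.0% of all entries did. The muscle median was then 0.04. Other lists low in F3 females were also read in F2 females, first with every pair. There 17 of 25 photoreceptor, 19 of 25 gut protease, 15 of 20 fat body and 17 of 27 hemocyte genes lay higher. The counts were 17 of 23 for neuropeptides and 12 of 27 for amino acid metabolism. Without the pair numbered 2, the same lists had 19, 20, 15, 14, 12 and 13 genes higher. Oxidative phosphorylation genes were higher in 8 of 58, and in 10 of 58 without that pair. In F3 males, 12 of 23 piRNA genes, 16 of 30 mitosis genes and 10 of 23 maternal germline transcripts lay higher. There 53.5% of all entries lay higher, and the muscle median was -0.02. Also higher were 21 of 25 photoreceptor, 17 of 24 gut protease, 13 of 18 fat body and 19 of 27 hemocyte genes. So were 14 of 20 neuropeptide and receptor genes, 22 of 27 amino acid metabolism genes and 25 of 58 oxidative phosphorylation genes. Of the 2 F2 pairs that remain, the one numbered 3 nearly matches F3 arrays.

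No entry was called, so no share of called genes by chromosome arm could be given. Of the entries with a symbol and an unadjusted p under 0.05, 16% lay on the X, against 16.2% of those tested. The median log2 difference was 0.01 on each of the arms X, 2L, 2R, 3L, 3R and 4.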

How the data were processed

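The deposited table holds log2 GCRMA values of whole-body RNA, per the submitters' processing notes, which also name limma 3.46.0. The array scan and summarisation settings are not given in the sources used here. From 18952 probe sets, 183 controls were left out. Of the rest, 13647 map to 1 gene, 402 to several and 4720 to none in the platform annotation, and 13544 matched RefSeq gene records. A gene with several probe sets was represented by the one of highest mean level, which left 17104 entries. An entry was tested if above 2.445, the 40th percentile, on at least 4 of the 8 arrays.

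Test minus control was fitted with limma 3.58.1 (R 4.3.3) with the replicate number as a block, and p-values were adjusted by Benjamini-Hochberg over all tested entries. Standard errors and 95% intervals are limma's. The number of arrays limits the precision. Numbers pair the arrays because same-numbered deviations correlated at 0.45 to 0.78 in the 4 pairs. The labels do not describe separate cultures beyond calling arrays biological replicates, so p-values measure the spread between these samples. The fits were tested on simulated data.

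Named genes were the insulin genes, the 8 of smallest p with a symbol in each direction whose 4 pairs all lay the same way, up to 3 called members of each list (there were none), and the 3 of smallest p in each direction of each interaction. Others were chosen after their values were seen. The groups, gene lists and tests were chosen with earlier results of these data known. Alternatives changed the block, the arrays in the fit, the filter, the probe set rule, the normalization, the variance model and the replicates. Tables were made with Python 3.11.15, pandas 2.3.3 and numpy 2.4.6, and figures with matplotlib 3.10.9.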

Additional observations from a re-analysis of the deposited data

Results flagged for a closer look

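Among 62 gene groups and 84 list groups of 4 arrays, 10 had 1 array far from the other 3, by Dixon's ratio of the gap to the group's range at the 95% level. About 1 in 20 groups not chosen by their values would be marked in this way by chance. That rate does not hold for genes named for a large range between numbers, such as CG7214. Ilp2 was marked in both lineages at number 2, with 3.54 in test females and 3.72 in control females. CG7214 was marked at number 3, with 8.20 in test females and 8.01 in control females, and CG7203 at number 3, with 11.24 in test females and 11.06 in control females. The immune-induced gene edin was marked at number 3 in test females, at 6.27, while its number 3 control read 6.90. Mean list levels were marked for insulin-like peptides and adipokinetic hormone in test array 2 (6.17), for immune recognition and signalling in test array 4 (7.58) and for ecdysteroid kinase-like genes in control array 2 (7.04).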

How the results depend on the processing

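The lineage comparison called 0 entries with no replicate block, with batch in place of the pairing, with all female arrays, with F2 and F3 females together, under each filter, probe set rule, normalization and variance model tried, and without each replicate number (0 to 0). The exception was the fit of F3 arrays of both sexes, with 2 calls, Pcp and hydra. Entries at an unadjusted p under 0.05 numbered 706 with the pairing, 70 without the block and 182 with batch in its place. The female minus male effect gave 0 to 1 calls without each female number, and 0 under its other alternatives. The F3 minus F2 effect gave 0 calls under each alternative run, 2 of them (pairs numbered 3, or the F2 pair numbered 2, left out) chosen after seeing the data. The replicate-number effect, with alternatives chosen after seeing the data, fell to 301 calls with no filter, where 17104 entries were tested, and ranged from 39 to 2587 without each number. The cause was not tested. Of 253 values of 19 named genes under alternatives, 252 kept their sign, the exception being InR without replicate 2 (0.08). Of 546 list medians, 8 moved beyond the spread between pairs. Genes near the lowest value of the scale, such as hydra, Pcp and Ilp2, are limited by signal over background.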
